A study of Homo sapiens with 24 samples.

Results

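The 10 genes described here decide what a cell does with pyruvate in its mitochondria, and they were taken from the deposited table by symbol, 10 of its 25277 symbols. They are the pyruvate dehydrogenase kinases PDK1, PDK2, PDK3 and PDK4, the phosphatases PDP1 and PDP2, pyruvate carboxylase (PC), the E1 subunits PDHA1 and PDHB, and the mitochondrial phosphoenolpyruvate carboxykinase PCK2. They were proposed with earlier results of these data known, and the only measured value in their rule, the mean over the 24 samples, chooses between repeated lines. None of them occurred on more than 1 line of the table, so no member was selected on that mean. All 10 were among the 13622 symbols tested, which are those above the floor of the table in at least 2 of 12 libraries.

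Pyruvate made by glycolysis enters the mitochondrion through a carrier and meets competing enzymes there. The pyruvate dehydrogenase complex turns it into acetyl-CoA for the TCA cycle; PDK enzymes phosphorylate the PDHA1 subunit and switch the complex off, and PDP enzymes remove the phosphate and switch it on. Pyruvate carboxylase makes oxaloacetate instead, which refills the cycle, and PCK2 turns oxaloacetate into phosphoenolpyruvate. In many tissues PDK4 is induced by fasting, lipid and glucocorticoid through nuclear receptors and FOXO factors, and PDK1 is a target of the hypoxia factor HIF1.

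Transcripts were measured by poly(A) RNA-seq in 22Rv1DR and DU145DR cells, aggressive derivatives of the human prostate cancer lines 22Rv1 and DU145 from ATCC. Each line received an siRNA against POM121, a nucleoporin, as construct 1 (s59623) or construct 2 (s19145) of the Silencer Select type, or was a control, of which the labels say no more. The labels write of a knockout, but an siRNA lowers a transcript and does not delete the gene. There are 12 libraries read on 2 lanes each, so each of the 6 groups has 2 libraries; nothing says that they came from separate cultures, and p-values therefore measure only the spread between these libraries. In library codes, B stands for construct 1, C for construct 2 and A for control, with 4 and 5 as the first character in 22Rv1DR and 1 and 2 in DU145DR. Sequencing lanes 1 and 2 carried every DU145DR library together with control 4A, while lanes 3 and 4 carried the remaining 22Rv1DR libraries.

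Levels are given in FPKM, fragments scaled to transcript length and library size, so that levels of different genes can be set side by side. Values at or under 1 FPKM are listed at 0. Each sample had 12361 to 12569 symbols above that floor in 22Rv1DR and 11884 to 12126 in DU145DR, and the depth is unknown. POM121 stood at 7.68 and 7.81 FPKM with construct 1 and 6.73 and 7.43 FPKM with construct 2 in 22Rv1DR, against 38.5 and 37.8 FPKM in controls. In DU145DR it stood at 13.4 and 13.5 FPKM with construct 1 and 12.5 and 13.2 FPKM with construct 2, against 21.6 and 21.3 FPKM in controls. The epithelial markers EPCAM, KRT8 and KRT18 were above the floor in both lines. CDH1 and the luminal genes KLK3, KLK2 and TMPRSS2 were listed at 0 in every DU145DR library. The endothelial and blood markers PECAM1, VWF, CDH5, PTPRC, CD3E and CD14 were listed at 0 in both lines. Of the stromal markers, COL1A2, COL3A1 and DCN were listed at 0 throughout, LUM lay between 42.3 and 55.4 FPKM in 22Rv1DR, and COL1A1 in DU145DR lay between 2.07 and 2.93 FPKM after knockdown, against 0 to 1.1 FPKM in controls. The part of stromal genes in the DU145DR results was not tested. In 22Rv1DR, ALB, a liver marker, ranged from 7.83 to 24.4 FPKM between the libraries of construct 2, where 4C and 5C differ for several genes below.

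Promoter windows of PDK4, PC, PDK1 and PCK2 are shown because these are the genes with a promoter sequence at hand whose transcripts passed the threshold for siPOM121 against control in a line. Each is the 250 bases before a transcript start in RefSeq on build GRCh38.p14, read on the gene's own strand. PDK4 and PCK2 have 1 start in that table, PDK1 has 2 and PC has 3, and for PDK1 and PC the start with the most GC is shown. Capitals mark the letters of ACGTG (the core bound by HIF1), GCGTG (its variant), AGGTCA (a nuclear receptor half-site), GTAAACA (a FOXO site), TGACG (the half-site of CREB and ATF factors) and CCAAT, on either strand. The windows are chr7:95596517-95596766 (minus strand) for PDK4, chr11:66958384-66958633 (minus strand) for PC, chr2:172555840-172556089 (plus strand) for PDK1 and chr14:24094061-24094310 (plus strand) for PCK2.
PDK4: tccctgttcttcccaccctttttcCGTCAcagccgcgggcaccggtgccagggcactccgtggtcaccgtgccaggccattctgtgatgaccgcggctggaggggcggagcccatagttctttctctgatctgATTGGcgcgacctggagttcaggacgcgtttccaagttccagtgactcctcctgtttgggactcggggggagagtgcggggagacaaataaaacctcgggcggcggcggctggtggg
PC: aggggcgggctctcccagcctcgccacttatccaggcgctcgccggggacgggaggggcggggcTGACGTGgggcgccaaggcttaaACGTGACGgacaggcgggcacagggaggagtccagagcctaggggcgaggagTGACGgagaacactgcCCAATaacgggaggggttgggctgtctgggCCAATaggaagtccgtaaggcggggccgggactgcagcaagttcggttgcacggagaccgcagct
PDK1: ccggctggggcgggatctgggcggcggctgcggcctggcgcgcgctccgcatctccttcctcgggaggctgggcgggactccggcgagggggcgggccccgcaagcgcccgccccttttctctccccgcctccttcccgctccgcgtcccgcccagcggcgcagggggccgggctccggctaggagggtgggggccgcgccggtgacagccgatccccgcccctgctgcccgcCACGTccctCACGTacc
PCK2: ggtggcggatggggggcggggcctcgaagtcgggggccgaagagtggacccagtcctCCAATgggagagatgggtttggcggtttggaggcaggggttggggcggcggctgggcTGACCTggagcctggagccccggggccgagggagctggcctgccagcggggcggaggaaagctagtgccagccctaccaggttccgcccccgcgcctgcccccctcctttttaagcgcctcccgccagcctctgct

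The PDK4 window holds 1 TGACG half-site and 1 CCAAT box, and no HIF1 core of either form, nuclear receptor half-site or FOXO letters. The PDK1 window holds 2 HIF1 cores close to the start and has 79.6% GC, and the PC window holds 2 HIF1 cores, each overlapping 1 of 3 TGACG half-sites, and 2 CCAAT boxes. In the PCK2 window 1 nuclear receptor half-site and 1 CCAAT box were found. Over 35116 windows of the same length, the HIF1 core ACGTG occurs in 18.5%, its variant in 32.2%, the nuclear receptor half-site in 12.1%, the FOXO letters in 2.98%, the TGACG half-site in 21.2% and the CCAAT box in 32.0%. Also searched, on both strands, were the E-box CACGTG, which contains the HIF1 core (6.34% of windows), the ATF4 letters TGATGNAAT (0.888%), the GC box GGGCGG (42.6%), the GATA site AGATAA (9.17%) and the E2F sites TTTGGCGC (0.55%) and, less often, TTTCGCGC (0.439%). RefSeq windows were matched for 9 of the 10 genes, 14 windows in all. Of the 14 windows, 6 held the HIF1 core, 2 the nuclear receptor half-site and 0 the FOXO letters. A GC box lay in 11 and a CCAAT box in 10. By gene, 6 had a window with the HIF1 core, 2 with the nuclear receptor half-site and 0 with the FOXO letters. A GC box and a CCAAT box were each found for 9 genes. The HIF1 core was absent from the PDK1 and PC windows that are not shown. A match is a run of letters and not a measured site.

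Control cells of the 2 lines differed in their levels of these genes. PDK4 was the leading kinase transcript of 22Rv1DR, at 36.3 and 34.4 FPKM in controls, and was listed at 0 in all 6 DU145DR libraries, so no fold is given between the lines. PC, the enzyme that feeds oxaloacetate to the cycle, had 13.6 and 13.4 FPKM in 22Rv1DR controls, against 3.45 and 3.25 FPKM in DU145DR controls. PDP1, the calcium-stimulated phosphatase, ran the other way, with 3.35 and 3.28 FPKM in 22Rv1DR controls and 12.3 and 12.6 FPKM in DU145DR controls. The control libraries of the lines did not overlap for any of these 3 genes, which were named for their large differences. Between these controls 82.4% of symbols above the floor in both lines passed the threshold used below, so a difference is the usual case.

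In limma's fit across all symbols, with Benjamini-Hochberg adjustment and a threshold of 0.05, PC was 4.03-fold higher in 22Rv1DR controls than in DU145DR controls (log2 fold change 2.01 ± 0.12, SE, n = 2 libraries each; adjusted p = 1e-07). PDP1 was lower, by a log2 fold change of -1.91 ± 0.05 (adjusted p = 3.19e-10), and so were PDK1 (-0.98 ± 0.09) and PDK2 (-0.62 ± 0.16, adjusted p = 0.00547). PDHB (1.18 ± 0.05), PDP2 (1.02 ± 0.06), PDHA1 (0.85 ± 0.07) and PCK2 (0.76 ± 0.08) were higher. PDK3 did not pass (0.15 ± 0.28, adjusted p = 0.646). In total 8 of the 9 genes with a fold passed, 5 higher and 3 lower, where 82.4% of the 11424 symbols above the floor in both lines passed (37.9% higher and 44.5% lower). The count is near that background. Among 22Rv1DR controls the levels ran PDHB, PDHA1, PDK4, PCK2, PC, PDK2, PDP2, PDP1, PDK3 and PDK1 from high to low. The gap between PC and PDK2 was smaller than the spread between the control libraries of PDK2. In DU145DR controls the order was PDHB, PDHA1, PDK2, PDP1, PCK2, PDK1, PC, PDP2, PDK3 and PDK4, and the values of PDP2 and PDK3 overlapped.

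**Figure D1:**
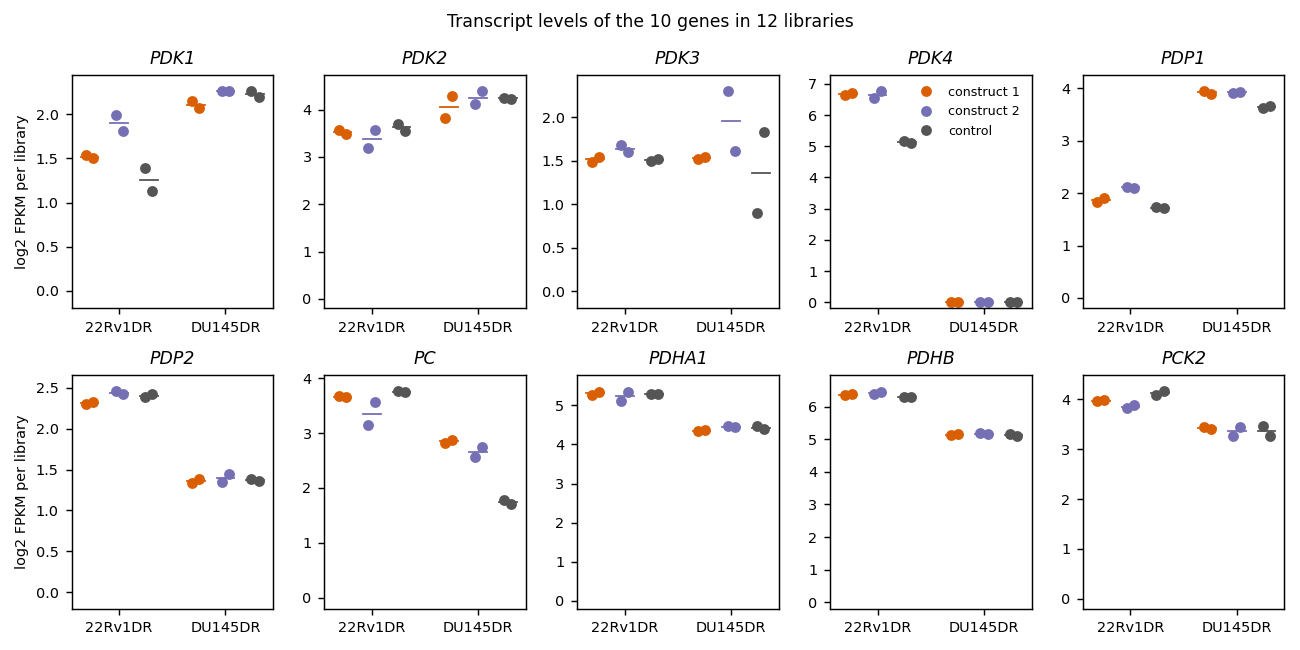
Level of each of the 10 genes in every library (log2 FPKM, vertical axes differ between panels), with 22Rv1DR left of DU145DR and construct 1, construct 2 and control from left to right; dots are libraries (mean of 2 lanes) and dashes the mean of 2 libraries. PDK4 rises in 22Rv1DR and lies at 0 in DU145DR, and PC lies above its controls after knockdown in DU145DR and below them in 22Rv1DR.

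PDK4 had the highest fold change of the 10 genes after POM121 knockdown in 22Rv1DR. It is the isoform that responds to fasting and lipid in muscle, heart and liver. Its level was 101 and 105 FPKM with construct 1 and 93.3 and 109 FPKM with construct 2, against 36.3 and 34.4 FPKM in controls. Every knockdown library lay far above both controls, and the constructs overlapped. The fold was 2.88 (log2 fold change 1.53 ± 0.06, SE, 4 siPOM121 libraries against 2; adjusted p = 1.51e-06, limma with Benjamini-Hochberg adjustment). That SE is pooled with 6 DU145DR libraries at 0, and with 22Rv1DR fitted alone the adjusted p from limma was 0.00107. Without control 4A, which leaves libraries from 1 pair of lanes, the log2 fold change was 1.57 (limma, adjusted p = 7.6e-05). Among all symbols tested, 29 of 13622 symbols had a higher fold change in that comparison. In such bulk RNA, a change in the share of cells of a kind and a change in RNA per cell cannot be told apart.

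The other kinases moved less in 22Rv1DR. PDK1, the isoform tied to hypoxia, had 2.91 and 2.83 FPKM with construct 1 and 3.98 and 3.50 FPKM with construct 2, against 2.62 and 2.19 FPKM in controls. All 4 knockdown libraries lay above both controls, the construct 1 libraries only just. Its log2 fold change was 0.45 ± 0.08 (limma, adjusted p = 0.00273), and 0.58 without control 4A. PDK2, the most widely expressed isoform, had 11.8 and 11.2 FPKM with construct 1 and 9.16 and 11.8 FPKM with construct 2, against 13.0 and 11.7 FPKM in controls. Its groups overlapped and it did not pass (-0.17 ± 0.14, limma, adjusted p = 0.384). PDK3 lay between 2.81 and 3.21 FPKM in the knockdown libraries, against 2.82 and 2.87 FPKM in controls, and did not pass either (0.07 ± 0.25).

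PDK4 made up most of the kinase transcripts of 22Rv1DR. The 4 kinase transcripts summed to 118 and 122 FPKM with construct 1 and 110 and 127 FPKM with construct 2, against 54.7 and 51.1 FPKM in controls. PDK4 made up 85.2% and 86.1% of that sum with construct 1 and 85.1% and 85.6% with construct 2, against 66.4% and 67.2% in controls. The sum of kinase over the sum of phosphatase transcripts was 13.9 and 13.9 with construct 1 and 11.1 and 13.2 with construct 2, against 6.40 and 5.94 in controls. In DU145DR the kinase sum lay between 21.4 and 28.8 FPKM over all 6 libraries, and PDK2 made up 64.0% to 74.1% of it. There the kinase to phosphatase ratio was 1.19 and 1.52 with construct 1 and 1.54 and 1.61 with construct 2, against 1.73 and 1.77 in controls. These are ratios of transcript levels and say nothing of enzyme activity or phosphorylation.

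**Figure D2:**
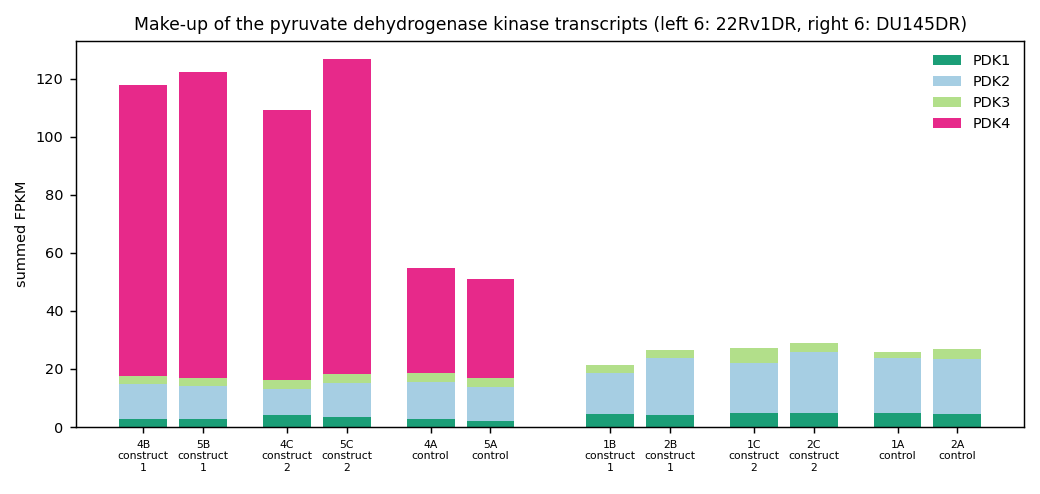
Summed FPKM of the 4 kinase transcripts in each library, stacked by gene, with construct 1, construct 2 and control from left to right in 22Rv1DR (left 6 bars) and DU145DR (right 6 bars). The 4 knockdown bars of 22Rv1DR stand at 110 to 127 FPKM and its controls at 54.7 and 51.1 FPKM, while PDK4 is missing from all DU145DR bars.

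In DU145DR 0 of the 3 kinases above the floor passed the threshold in limma, where 23.9% of all symbols passed. Of these kinases, 0 had an unadjusted p under 0.05 in limma. PDK1 had 4.43 and 4.19 FPKM with construct 1 and 4.84 and 4.79 FPKM with construct 2, against 4.81 and 4.61 FPKM in controls (log2 fold change -0.05 ± 0.08, limma, adjusted p = 0.776). PDK2 had 14.1 and 19.6 FPKM with construct 1 and 17.4 and 20.9 FPKM with construct 2, against 19.1 and 18.8 FPKM in controls (-0.08 ± 0.14, limma, adjusted p = 0.772). Both sets of libraries overlapped with control. PDK3, the isoform with the strongest intrinsic kinase activity, had 2.87 and 2.92 FPKM with construct 1 and 4.97 and 3.05 FPKM with construct 2, against 1.86 and 3.55 FPKM in controls. Its controls differed more from each other than its groups did (0.38 ± 0.25, limma, adjusted p = 0.309). Without control 2A the PDK3 value became 0.85, with an adjusted p of 0.0381 from limma, and without control 1A it became -0.08 (limma, adjusted p = 0.94).

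The phosphatase PDP1 rose in both lines. In 22Rv1DR it had 3.59 and 3.76 FPKM with construct 1 and 4.34 and 4.27 FPKM with construct 2, against 3.35 and 3.28 FPKM in controls. In DU145DR it had 15.4 and 14.9 FPKM with construct 1 and 15.2 and 15.2 FPKM with construct 2, against 12.3 and 12.6 FPKM in controls. Knockdown and control libraries did not overlap in either line, and the construct 2 libraries of 22Rv1DR were the highest there. The log2 fold change was 0.26 ± 0.04 in 22Rv1DR (limma, adjusted p = 0.00176) and 0.29 ± 0.04 in DU145DR (limma, adjusted p = 0.00179). The difference between these effects was -0.02 ± 0.06 (limma interaction, adjusted p = 0.832). PDP2, the phosphatase that does not need calcium, lay between 4.92 and 5.50 FPKM after knockdown in 22Rv1DR, against 5.2 and 5.33 FPKM in controls. In DU145DR it lay between 2.51 and 2.72 FPKM after knockdown, against 2.62 and 2.57 FPKM in controls, and it passed the threshold in neither line.

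PC was the gene of the 10 with the highest fold change in DU145DR, and it was already known from these data as 1 of the larger rises there, so its values are given as a description. It had 7.09 and 7.34 FPKM with construct 1 and 5.88 and 6.69 FPKM with construct 2, against 3.45 and 3.25 FPKM in controls. All 4 knockdown libraries lay well above both controls, those of construct 1 highest. The fold was 2.01 (log2 fold change 1.01 ± 0.10, SE), with 36 of 13622 symbols higher. It was 2.15-fold with construct 1 and 1.87-fold with construct 2. The rise left PC in DU145DR below its level in 22Rv1DR, where it had 12.8 and 12.6 FPKM with construct 1 and 8.87 and 11.8 FPKM with construct 2, against 13.6 and 13.4 FPKM in controls. There the log2 fold change was -0.25 ± 0.10 and did not pass (limma, adjusted p = 0.0855), although all 4 knockdown libraries lay below both controls. Without construct 2 library 5C it was -0.35, with an adjusted p of 0.00131 from limma, and without 4C it was -0.14 (limma, adjusted p = 0.0779).

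Relative to PDHA1, the subunit that opens the competing route to acetyl-CoA, PC stood at 0.349 and 0.355 with construct 1 and 0.267 and 0.307 with construct 2 in DU145DR, against 0.155 and 0.155 in controls. In 22Rv1DR the ratio was 0.331 and 0.308 with construct 1 and 0.257 and 0.289 with construct 2, against 0.351 and 0.342 in controls. The DU145DR knockdown libraries lay within or just above the range of the 22Rv1DR libraries. The libraries keep no strand, and exons of PC overlap those of LRFN4 on the opposite strand in GENCODE, so reads of these genes cannot be told apart there. LRFN4 itself lay between 33.1 and 37.7 FPKM after knockdown in DU145DR, against 31.8 to 34.6 FPKM in controls, and between 9.19 and 11.5 FPKM in 22Rv1DR, against 11.4 to 11.5 FPKM in controls. PDK2 likewise overlaps SAMD14, at 1.64 to 2.62 FPKM after knockdown in DU145DR and listed at 0 in its controls. Exons of PDK1 and PDHB overlap the antisense genes AC078883.1 and AC135507.1, for which no level is given. Those of PDHA1 overlap MAP3K15, listed at 0 in both lines. The share of reads from such neighbours in the values of these genes was not tested.

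The E1 subunits, which the kinases act on, passed the threshold in neither line. PDHA1 had 38.6 and 40.9 FPKM with construct 1 and 34.5 and 40.6 FPKM with construct 2 in 22Rv1DR, against 38.7 and 39.3 FPKM in controls (log2 fold change -0.02 ± 0.06, limma, adjusted p = 0.925). In DU145DR it lay between 20.3 and 22.0 FPKM after knockdown, against 22.2 and 21.0 FPKM in controls (-0.03 ± 0.06). PDHB lay between 82.0 and 87.9 FPKM after knockdown in 22Rv1DR, against 79.4 and 79.6 FPKM in controls, without overlap (0.08 ± 0.04, limma, adjusted p = 0.129). It lay between 34.7 and 36.4 FPKM in DU145DR, against 36.1 and 34.1 FPKM in controls. The PDHB call in 22Rv1DR was gained with quantile normalization (limma, adjusted p = 0.0225) and without library 4C (limma, adjusted p = 0.0342).

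PCK2, which drains oxaloacetate to phosphoenolpyruvate, had 15.6 and 15.8 FPKM with construct 1 and 14.2 and 14.8 FPKM with construct 2 in 22Rv1DR, against 17.1 and 17.9 FPKM in controls. All knockdown libraries lay below both controls, and it fell by 0.21 on the log2 scale (SE 0.07, limma, adjusted p = 0.0377). That call was lost in 11 of 21 other settings, with adjusted p up to 0.223 (limma, without control 5A) and 0.0965 without control 4A. In DU145DR PCK2 lay between 9.68 and 10.9 FPKM after knockdown, against 11.1 and 9.56 FPKM in controls, with full overlap (0.02 ± 0.07).

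Over both constructs, 4 of 10 genes passed in 22Rv1DR, PDK4, PDK1 and PDP1 higher and PCK2 lower, where 35.5% of all symbols tested passed, 15.2% higher and 20.4% lower. In DU145DR 2 of 9 passed, both higher: PDP1, and PC, whose rise there was already known from these data. There 23.9% of all symbols passed, 14.5% higher and 9.37% lower. These shares are near those of all symbols, so the counts themselves do not set the 10 genes apart. The median log2 fold change of the 10 genes was 0.03 in 22Rv1DR, against -0.02 over all symbols. That of the 9 genes with a fold in DU145DR was 0.02, against 0.

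**Figure D3:**
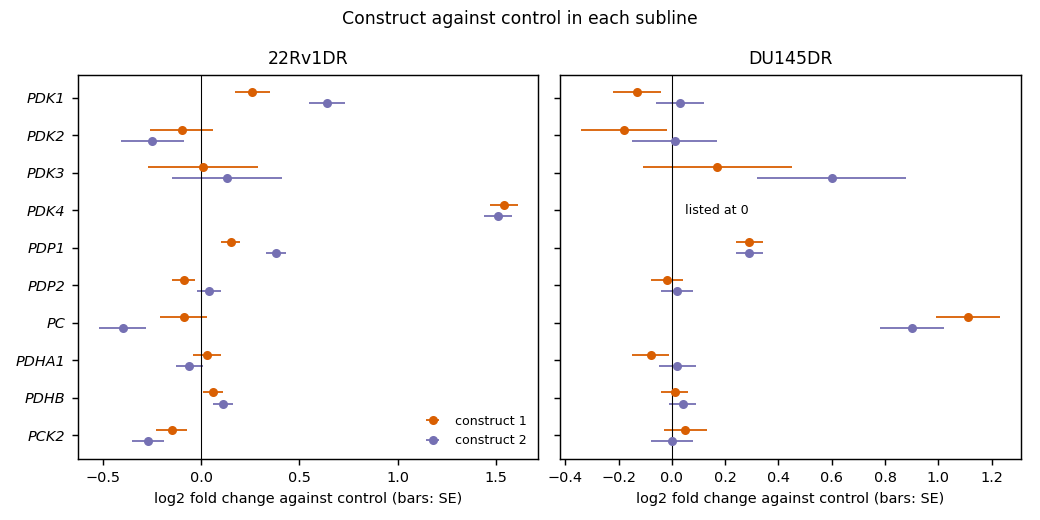
Log2 fold change of each construct against control (dots) with its SE (bars) for the 10 genes, in 22Rv1DR (left) and DU145DR (right; the horizontal axes differ). Both constructs place PDK4 near 1.5 in 22Rv1DR and PC near 1 in DU145DR, and PDK4 has no value in DU145DR because it is listed at 0.

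The constructs were compared next. PDK4 in 22Rv1DR had log2 fold changes of 1.54 ± 0.07 for construct 1 and 1.51 ± 0.07 for construct 2, and a difference of -0.03 ± 0.07 (limma, adjusted p = 0.832). With construct 1 it was the only gene of the 10 to pass against control, where 27.1% of symbols passed. With construct 2, 5 of 10 passed, where 35.1% of symbols passed: PDK4, PDK1 (0.64 ± 0.09), PDP1 (0.38 ± 0.05), PC (-0.40 ± 0.12) and PCK2 (-0.27 ± 0.08). Tested directly, construct 2 minus construct 1 was 0.38 ± 0.09 for PDK1 (limma, adjusted p = 0.0339) and 0.23 ± 0.05 for PDP1 (limma, adjusted p = 0.0219), the 2 of 10 that passed, where 11.6% of symbols did. That background itself moved from 1577 symbols called to 28 with 22Rv1DR fitted alone, 223 without 4B, 315 without 5B and 5983 without 5C. The difference for PC was -0.31 ± 0.12 and did not pass (limma, adjusted p = 0.111). These 2 calls were lost with 22Rv1DR fitted alone, with array weights, on the lower-numbered lane alone and without library 4B or 5B, and the count was 1 without 4C or any 1 DU145DR siPOM121 or control library, and 4 without 5C. Against control, the count for construct 1 was 2 without 4A and 3 without 4C or 5C, and that for construct 2 was 3 without 4A or 5A.

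In DU145DR 2 of 9 genes passed with construct 1, where 19.8% of symbols passed, and 2 of 9 with construct 2, where 16.6% passed. They were PC and PDP1 both times, with 0.29 ± 0.05 for PDP1 with each construct. Between the constructs 0 of 9 passed in limma, where 0.0220% of symbols passed, and the smallest unadjusted p was 0.113, for PC, so 0 of 9 were also under an unadjusted 0.05.

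The effect of knockdown on PC differed between the lines by -1.25 ± 0.14 on the log2 scale (22Rv1DR effect of -0.25 minus DU145DR effect of 1.01), a value given as a description for the reason above. For PDK1 the difference was 0.50 ± 0.11 (0.45 minus -0.05, limma interaction, adjusted p = 0.0137). PC and PDK1 were the 2 of 9 genes past the threshold, where 24.5% of the symbols above the floor in both lines passed, 8.53% higher and 15.9% lower. The PDK1 difference was 0.37 without 22Rv1DR control 5A (limma, adjusted p = 0.0557) and 0.47 without DU145DR control 1A (limma, adjusted p = 0.0583). PCK2 differed by -0.24 ± 0.10 and did not pass (limma, adjusted p = 0.104). That outcome held in 19 of 20 other settings, and leaving out 1 library gave -0.345 to -0.131. For PDK4 the difference has no value, since DU145DR lists it at 0 throughout.

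Genes around the 10 were read from lists chosen for the pathway. Of the carrier, 1 of 2 genes passed in 22Rv1DR, and of the rest of the complex 1 of 4, where 35.5% of all symbols passed. MPC2, a subunit of the mitochondrial pyruvate carrier, rose in 22Rv1DR (0.28 ± 0.04, limma, adjusted p = 0.000921), and MPC1 did not pass. PDHX, which anchors E3 in the complex, rose in 22Rv1DR (0.23 ± 0.06, limma, adjusted p = 0.0133), with 24.4 and 25.2 FPKM with construct 1 and 23.2 and 26.8 FPKM with construct 2, against 21.5 and 20.8 FPKM in controls. DLAT, DLD and PDPR did not pass there. In DU145DR 0 of 4 complex genes and 0 of 2 carrier genes passed in limma, where 23.9% of all symbols passed. Of either set, 0 had an unadjusted p under 0.05 in limma. Among the 8 lactate dehydrogenases and lactate transporters tested in 22Rv1DR, LDHD (0.30 ± 0.08) and LDHA (0.13 ± 0.04) rose and SLC16A8 fell by 0.21. LDHD and SLC16A8 were listed at 0 in every DU145DR library, and their SEs are pooled with those libraries. In DU145DR 0 of 5 passed, beside the same 23.9% of all symbols, with 1 at an unadjusted p under 0.05 in limma. Of 16 TCA cycle genes, 0 rose and 3 fell in 22Rv1DR, CS (-0.19 ± 0.05), OGDH (-0.25 ± 0.07) and DLST (-0.19 ± 0.06), where 20.4% of all symbols fell. In DU145DR 3 of 16 rose and 1 fell, where 14.5% of all symbols rose and 9.37% fell, and IDH2, the mitochondrial NADP-linked isocitrate dehydrogenase, had the highest value (0.54 ± 0.04, limma, adjusted p = 7.42e-05).

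Genes of fatty acid oxidation, the route that supplies acetyl-CoA when the complex is off, rose in 7 of 16 cases in 22Rv1DR. There 1 fell, CPT1B (-0.36 ± 0.07), where 15.2% of all symbols rose and 20.4% fell. CPT1C, counted among the 7, lay at the floor throughout DU145DR, and its SE is pooled with those libraries. ETFA, an electron acceptor of the pathway, had 186 and 197 FPKM with construct 1 and 205 and 201 FPKM with construct 2, against 140.0 and 142 FPKM in controls (0.48 ± 0.04). HADHB (0.38 ± 0.04) and SLC25A20, the carnitine carrier (0.45 ± 0.06), also rose, and the list's median was 0.15. In DU145DR 2 of 14 rose and 2 fell, with a median of 0.08, where 14.5% of all symbols rose and 9.37% fell. In those cells ACADS rose (0.38 ± 0.07), and SLC25A20 and CPT1A fell, by 0.28 and 0.35. The median of 22Rv1DR was also followed over its libraries. Leaving out each 22Rv1DR library in turn gave medians from 0.12 (without 5C) to 0.17 (without 4C) there.

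Among known PPAR targets, 2 of 5, ANGPTL4 and CPT1A, rose in 22Rv1DR and 0 fell, where 15.2% of all symbols rose and 20.4% fell. CPT1A and ACADVL are also on the fatty acid oxidation list, so the rise of CPT1A is counted in both lists. ANGPTL4, a secreted inhibitor of lipoprotein lipase, had 23.1 and 22.9 FPKM with construct 1 and 23.7 and 22.4 FPKM with construct 2, against 13.5 and 12.7 FPKM in controls (0.82 ± 0.09). In DU145DR ANGPTL4 had 3.93 and 3.48 FPKM with construct 1 and 4.53 and 3.82 FPKM with construct 2, against 7.49 and 6.28 FPKM in controls (-0.81 ± 0.09). The difference between lines was 1.62 ± 0.13 for ANGPTL4 and 0.71 ± 0.11 for CPT1A (limma interaction, adjusted p = 0.000174 and 0.00311). The median of the list was 0.21 in 22Rv1DR and -0.23 in DU145DR, where 0 of 5 rose and 2 fell, beside 14.5% and 9.37% of all symbols. Leaving out each 22Rv1DR library in turn gave 22Rv1DR medians from 0.09 (without control 4A) to 0.35 (without control 5A).

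HIF1A targets other than the kinases rose in 10 of 11 cases in 22Rv1DR and 0 fell, where 15.2% of all symbols rose and 20.4% fell. The list had a median of 0.50, where all symbols had a median of -0.02. NDRG1 had 48.6 and 50.0 FPKM with construct 1 and 37.9 and 40.1 FPKM with construct 2, against 25.6 and 25.6 FPKM in controls (0.78 ± 0.05, limma, adjusted p = 1.41e-05). BNIP3L, a receptor for the removal of mitochondria, rose by 0.62 ± 0.05 and ADM, a vasodilator peptide, by 0.87 ± 0.10. SLC2A1, the glucose transporter, did not pass (-0.10 ± 0.05). In DU145DR 3 of 11 rose and 3 fell, with a median of 0.10, where 14.5% of all symbols rose and 9.37% fell. NDRG1 rose there by 0.40 and VEGFA fell by 0.37. The effect was higher in 22Rv1DR than in DU145DR for 8 of 11 by the interaction test, where 8.53% of symbols were. Leaving out each 22Rv1DR library in turn gave list medians in 22Rv1DR from 0.47 (without control 4A) to 0.59 (without 4C).

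**Figure D4:**
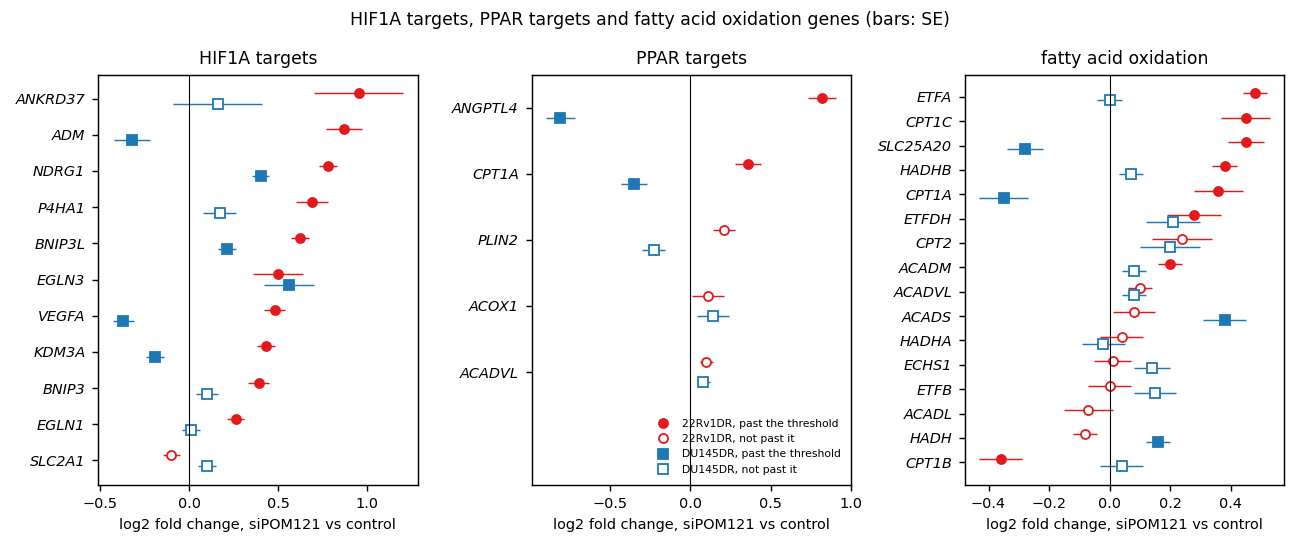
Log2 fold change of siPOM121 against control with its SE for HIF1A targets, PPAR targets and fatty acid oxidation genes, 22Rv1DR as circles and DU145DR as squares, filled where limma's adjusted p was under 0.05. In the HIF1A panel 10 of 11 circles are filled and right of 0, and ANGPTL4 and CPT1A have filled symbols on both sides of 0.

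The transcription factors that act on PDK genes gave 5 higher and 1 lower of 11 in 22Rv1DR, and 3 higher and 2 lower of 11 in DU145DR. Of all symbols, 15.2% were higher and 20.4% lower in 22Rv1DR, and 14.5% were higher and 9.37% lower in DU145DR. HIF1A itself rose in 22Rv1DR (0.30 ± 0.04, limma, adjusted p = 0.000767), as did PPARA (0.37 ± 0.08). PPARGC1A is among the 5, but it was listed at 0 in control 4A and had 1.01 FPKM in control 5A, against 1.27 to 1.52 FPKM after knockdown, so no fold is given. PPARA rose in DU145DR too (0.83 ± 0.08). ATF4 targets, a list that PCK2 shares, gave 2 higher and 2 lower of 12 in 22Rv1DR and 0 higher and 2 lower of 11 in DU145DR, where TRIB3 fell by 0.49 and CHAC1 by 0.57, beside the same shares of all symbols.

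The remaining lists are short, and their counts stand beside 35.5% of all symbols passing in 22Rv1DR and 23.9% in DU145DR. Pyruvate formation and malic enzymes gave 0 higher and 1 lower of 5 in 22Rv1DR (GPT2, -0.17 ± 0.05) and 0 of 5 in DU145DR, where 2 had an unadjusted p under 0.05 in limma. Among the branched-chain relatives of the complex and its kinase, BCKDHB rose in 22Rv1DR (0.25 ± 0.08) as 1 of 5, and DBT (0.25 ± 0.05) and BCKDHB (0.38 ± 0.08) rose in DU145DR as 2 of 4. LIAS, which makes the lipoyl cofactor of the complex, fell by 0.41 in DU145DR, and 0 of 3 lipoylation genes passed in 22Rv1DR, with 0 at an unadjusted p under 0.05 in limma. Genes of acetyl-CoA supply gave 0 of 6 in 22Rv1DR, with 1 at an unadjusted p under 0.05 in limma, and 3 higher and 1 lower of 6 in DU145DR, where CRAT rose (0.38 ± 0.07) and ACAT1 fell by 0.20. Gluconeogenesis gave 1 higher and 2 lower of 6 in 22Rv1DR and 1 higher and 1 lower of 7 in DU145DR.

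With values centred within each line, 8707 symbols of at least 5 FPKM were compared with PDK4 and with PC over the 12 libraries. PDK4 is at 0 in 6 of them, so its pattern is that of the other 6 libraries, from 22Rv1DR, and the measure favours symbols that are flat or listed at 0 in DU145DR. Closest to PDK4 were GDF15, a stress cytokine (Pearson r = 0.997), TAF6, a subunit of TFIID (0.989), and the GTPase RAB12 (0.988). GDF15, also listed at 0 in DU145DR, had 167 and 167 FPKM with construct 1 and 164 and 169 FPKM with construct 2 in 22Rv1DR, against 117 and 119 FPKM in controls. TAF6 had 37.4 and 40.8 FPKM with construct 1 and 44.1 and 54.1 FPKM with construct 2 there, against 7.74 and 7.93 FPKM in controls. Closest to PC were EPHX1, an epoxide hydrolase (r = 0.984), NUCB1 (0.975) and MXD4 (0.974). These values share the contrast of knockdown with control in the same libraries and are descriptions of pattern alone.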

How the data were processed

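The deposited table holds log2 FPKM values per gene symbol and sample; per the submitters' processing notes, the authors used TopHat and Cufflinks, and the builds named are hg19 and mm10. That the unit is log2 was read from the deposited values, since 100% of those above the floor become numbers of 6 significant digits as powers of 2 (tolerance 0.02). Values at or under 1 FPKM stand at 0 (52.8% of all), and counts and depth are not given, so no counting interval is possible. Of 27026 lines, 25277 symbols were kept, with the line of highest mean for the 605 repeated symbols. Both lanes of a library were averaged on the log2 scale.

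All tests are from limma 3.58.1 (R 4.3.3, trend and robust) on 12 libraries in 6 groups with 6 residual degrees of freedom, over 13622 symbols above the floor in at least 2 libraries, 2-sided, with Benjamini-Hochberg adjustment and a threshold of 0.05. The siPOM121 effect is the mean of both constructs minus control. For genes at the floor throughout a line, the SE in the other line is pooled with those libraries. The 10 genes and all lists were chosen with earlier results of these data known, so no test here is independent support. The 10 genes and POM121 were always named, with up to 3 genes a list of smallest p in each line; genes beyond these were chosen after their values were seen. The alternatives were normalization, filter, pseudocount, lanes, array weights, lines fitted alone, the replicate block and leaving out each library. Gene neighbours come from GENCODE v29 and promoters from RefSeq, both on another build than hg19. A few genes of the lists are not reported here.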

Additional observations from a re-analysis of the deposited data

Results flagged for a closer look

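Sets of 4 samples (both lanes of both libraries of a group) were tested for a stray value among the 10 genes. Of 57 sets, 2 had one past the 95% limit of Dixon's test. Chance alone flags about 1 in 20 sets of independent samples. Lanes of the same library are not independent, so that rate need not hold here. Both concern PDK2 in DU145DR. Library 1C of construct 2 had 14.4 FPKM on 1 lane, against 20.4 to 21.5 FPKM in the other samples of that group. Control library 1A had 19.4 FPKM on 1 lane, against 18.7 to 18.8 FPKM in the others, a narrow range.

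The effect of siPOM121 differed between 22Rv1DR and DU145DR by the interaction test for PDK1, by 0.50 on the log2 scale, and for PC, by -1.25.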

How the results depend on the processing

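For siPOM121 against control and the line difference, no called gene of the 10 changed direction under any of up to 21 alternatives. The rise of PDK4 in 22Rv1DR passed in all 20 that gave it a value (log2 fold change 1.47 to 1.58). The rise of PDP1 passed in all 21 in each line, and that of PDK1 in 22Rv1DR in all 21 (0.32 to 0.58). For PC in DU145DR, given as a description, the log2 fold change ranged from 0.85 to 1.09. Counts for construct 1 against control in 22Rv1DR, 1 as reported, were 2 with no filter, with a pseudocount of 0.5 FPKM and with the replicate block, 3 on the lower-numbered lane or with array weights, and 0 with the filter on all libraries, which drops PDK4. Leaving out 1 library gave 1 to 3. For construct 2 against control in 22Rv1DR, 5 as reported, array weights gave 3 and leaving out 1 library gave 3 to 6. Between constructs there, 2 as reported, the count was 0 on the lower-numbered lane, with array weights and with the line fitted alone, and leaving out 1 library gave 0 to 4. For the line difference, 2 as reported, leaving out 1 library gave 1 to 2. Apart from the filter, the cause was not tested.

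No replicate number pairs the libraries: deviations of same-numbered libraries correlated from -0.10 to 0.13 over 6 pairs. The replicate block ended the PCK2 call in 22Rv1DR (adjusted p = 0.062). Over all symbols, calls ranged from 2548 (without 5A) to 7016 (without 5C) in 22Rv1DR, 4842 as reported, and from 1551 (without 1A) to 5160 (array weights) in DU145DR, 3253 as reported. Against control in 22Rv1DR they ranged from 1783 to 6120 for construct 1 and from 1532 to 7165 for construct 2, and in DU145DR from 1299 to 4680 and from 995 to 4136. Line difference calls ranged from 1689 to 6180. With quantile normalization the share higher among calls was 54.3% for construct 2 in DU145DR (66.1% as reported) and 49.2% for the line difference (36% as reported). For siPOM121 it was 50.5% in 22Rv1DR (42.7% as reported), which turns the excess of lower calls, and 51.6% in DU145DR (60.8% as reported). Depth is unknown, and levels under 1 FPKM are not seen.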
